A study of Homo sapiens with 6 samples.

Results

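The epithelial-mesenchymal transition (EMT) factors and markers measured here are 10 genes out of 20030 genes in the table of expression values. These genes were chosen by name for their known roles, with earlier results of these data known. They are 4 transcription factors of the transition (SNAI1, SNAI2, ZEB1 and ZEB2), 3 mesenchymal markers (VIM, FN1 and CDH2) and 3 epithelial markers (CDH1, OCLN and EPCAM), and all 10 were found. They were measured by RNA sequencing in 786-O cells, an established line of clear cell renal cell carcinoma (ccRCC), at passages 16 to 18. Cells with stable knockdown of YB1 by lentiviral small hairpin RNA (shYB1) were compared with cells that carried a scrambled shRNA (vector), and both were harvested 7 days after puromycin selection. Each group had 3 libraries. The series text speaks of 3 independent shRNAs against YB1, whereas the labels give a single shYB1 group. Whether the 3 shYB1 libraries carried the same hairpin or different ones is therefore not known. Nothing states that the replicates came from separate cultures, so p-values measure the spread between these libraries. That spread may be technical or, in shYB1 cells, lie between hairpins. Values are FPKM, fragment numbers scaled to transcript length and to the mapped fragments of each library, so that levels of different genes can be compared.

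In EMT, epithelial cells loosen their junctions and take on the shape and movement of mesenchymal cells. The zinc finger repressors of the SNAIL and ZEB families bind E-box sequences in the promoters of junction genes such as CDH1 and silence them, while N-cadherin, vimentin and fibronectin increase. Renal tubule cells are unusual among epithelia because they can express N-cadherin and, in ccRCC, vimentin together with keratins. YB1, encoded by YBX1, is a protein that binds DNA and RNA and is named after the Y-box, a promoter element with the core CCAAT. The comparison asks how the transcripts of these factors and markers stood after YB1 had been lowered.

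Promoter sequences were read from RefSeq on GRCh38.p14, as the 250 bases before each listed start site. Of the 10 genes, 6 were matched to the promoter table used, with 14 start sites among them, and SNAI1, SNAI2, CDH1 and EPCAM were not matched. A pair of motifs was searched on both strands: the Y-box core CCAAT or its reverse complement ATTGG, and the E-box CAGGTG or its reverse complement CACCTG. The Y-box core was found before 4 of the 14 start sites, in 3 genes (FN1, CDH2 and OCLN), and 32.0% of all 35116 promoters of this length hold it. The E-box was found before 4 of the 14, in OCLN and ZEB1, and 17.5% of all promoters hold it. VIM and ZEB2 held neither motif in these windows. A match is a description of the letters and does not show that YB1, a SNAIL or a ZEB protein binds there. The stretches below are shown because they carry the Y-box core or the E-box beside the genes measured, with the motif in capitals, read 5′ to 3′ on the strand of the gene.
FN1: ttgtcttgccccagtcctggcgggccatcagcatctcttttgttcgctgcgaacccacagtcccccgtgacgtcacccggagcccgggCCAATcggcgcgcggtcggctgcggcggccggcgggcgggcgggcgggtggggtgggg
CDH2: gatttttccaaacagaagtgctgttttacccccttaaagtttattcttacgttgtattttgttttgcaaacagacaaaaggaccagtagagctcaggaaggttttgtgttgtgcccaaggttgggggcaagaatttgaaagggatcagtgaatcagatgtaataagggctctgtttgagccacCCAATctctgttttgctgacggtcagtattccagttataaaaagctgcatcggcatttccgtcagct
ZEB1: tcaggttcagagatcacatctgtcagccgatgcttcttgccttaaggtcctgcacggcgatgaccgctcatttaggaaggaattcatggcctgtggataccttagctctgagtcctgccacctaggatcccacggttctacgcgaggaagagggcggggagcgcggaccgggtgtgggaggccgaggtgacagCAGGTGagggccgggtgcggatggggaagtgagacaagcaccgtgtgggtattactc
OCLN: tccgagtttCAGGTGaATTGGtcaccgagg
The FN1 stretch (chr2:215436173-215436318, minus strand) lies before every exon of FN1 in GENCODE release 29 and carries CCAAT at 162 bases before the RefSeq start. Of its 146 bases, 57 are exonic in a gene of the opposite strand. The CDH2 stretch (chr18:28036642-28036891, minus strand) lies before the second of the CDH2 start sites, inside the body of CDH2 and in no annotated exon, and carries CCAAT at 67 bases. The ZEB1 stretch (chr10:31318167-31318416, plus strand) carries CAGGTG at 57 bases before the first listed start of ZEB1, and all of its 250 bases are exonic in the antisense gene ZEB1-AS1. The OCLN stretch (chr5:69492505-69492534, plus strand) is 30 bases long, lies in the first exon of a longer OCLN transcript, and holds CAGGTG and ATTGG separated by a single base, at 33 and 26 bases before the start.

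The targeted gene was examined before the others, to test the labels. The mRNA of YBX1 was at 366.5, 373 and 378 FPKM with the scrambled shRNA and at 167, 166 and 173 FPKM with the shRNA against YB1. Every shYB1 library lay far below every vector library, in the direction of the labels. The log2 change was −1.14 (standard error 0.031, adjusted p = 1.53e-08 by limma with Benjamini-Hochberg adjustment). Fold changes here are on the log2(FPKM + 0.1) scale, on which changes of weakly expressed genes appear smaller than they are. Of the 50-base words in YBX1 transcripts, 30.7% also occur in transcripts of other genes, mostly YBX1 pseudogenes, so the level itself is uncertain.

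The cells were then read against markers of several cell types. Of the keratins of simple epithelia, KRT8, KRT18 and KRT19 had means in vector cells of 206, 75.8 and 208 FPKM, whereas KRT7 was at 0.345 FPKM. The renal transcription factor PAX8 was at 77.1 FPKM. VIM, at a mean of 1400.2 FPKM in vector cells, exceeded each of these keratins, and transcripts of both kinds were present in every library. In the fibroblast list, LUM was the most abundant of 8 genes at 2.06 FPKM, and the other 7 had means under 1 FPKM over the 6 libraries. The summed level of that list was 2.86, 3.02 and 2.83 FPKM in vector libraries and 3.13, 3.02 and 3.03 FPKM in shYB1 libraries. All 7 endothelial genes had means under 1 FPKM, led by PECAM1 at 0.384 FPKM, and CDH5 and EMCN were listed at 0 in all 6 libraries. Of the 7 leukocyte genes, CD68, a lysosomal protein that is also made outside leukocytes, was the most abundant at 25.0 FPKM. CD3E was listed at 0 in all 6 libraries, and PTPRC, which marks leukocytes, did not exceed 0.0164 FPKM in any. LYZ, also in this list, varied between libraries, at 1.84, 2.87 and 0.0704 FPKM in vector and 0.173, 0.692 and 1.26 FPKM in shYB1 libraries. The summed level of that list was 26.9, 28.3 and 26.1 FPKM in vector libraries and 22.7, 23.4 and 24.3 FPKM in shYB1 libraries, most of it from CD68 (log2 change −0.16, adjusted p = 0.00969 by limma with Benjamini-Hochberg adjustment). In bulk samples such as these, fewer cells of a kind and less RNA per cell cannot be told apart.

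The order of the members by mean level was the same in both groups. In vector cells it ran from VIM (1400.2 FPKM) and FN1 (627 FPKM) through CDH2 (28.7 FPKM), SNAI1 (22.2 FPKM), SNAI2 (11.7 FPKM), ZEB2 (4.51 FPKM), ZEB1 (1.74 FPKM) and EPCAM (1.16 FPKM) to OCLN (0.0693 FPKM) and CDH1 (0.0335 FPKM). VIM ranked 21 and FN1 ranked 63 among the 20030 genes by mean FPKM over the 6 libraries, whereas EPCAM ranked 10242, OCLN 13097 and CDH1 13967. Neighbours in this order did not overlap between their libraries in either group, with the exception of OCLN and CDH1 in shYB1 cells. Among the members, the mesenchymal markers therefore stood above the EMT factors, and CDH1, OCLN and EPCAM stood below both, with and without the knockdown. This order does not extend to all epithelial genes, since the keratins KRT8, KRT18 and KRT19 given above exceeded CDH2 and SNAI1.

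**Figure D1:**
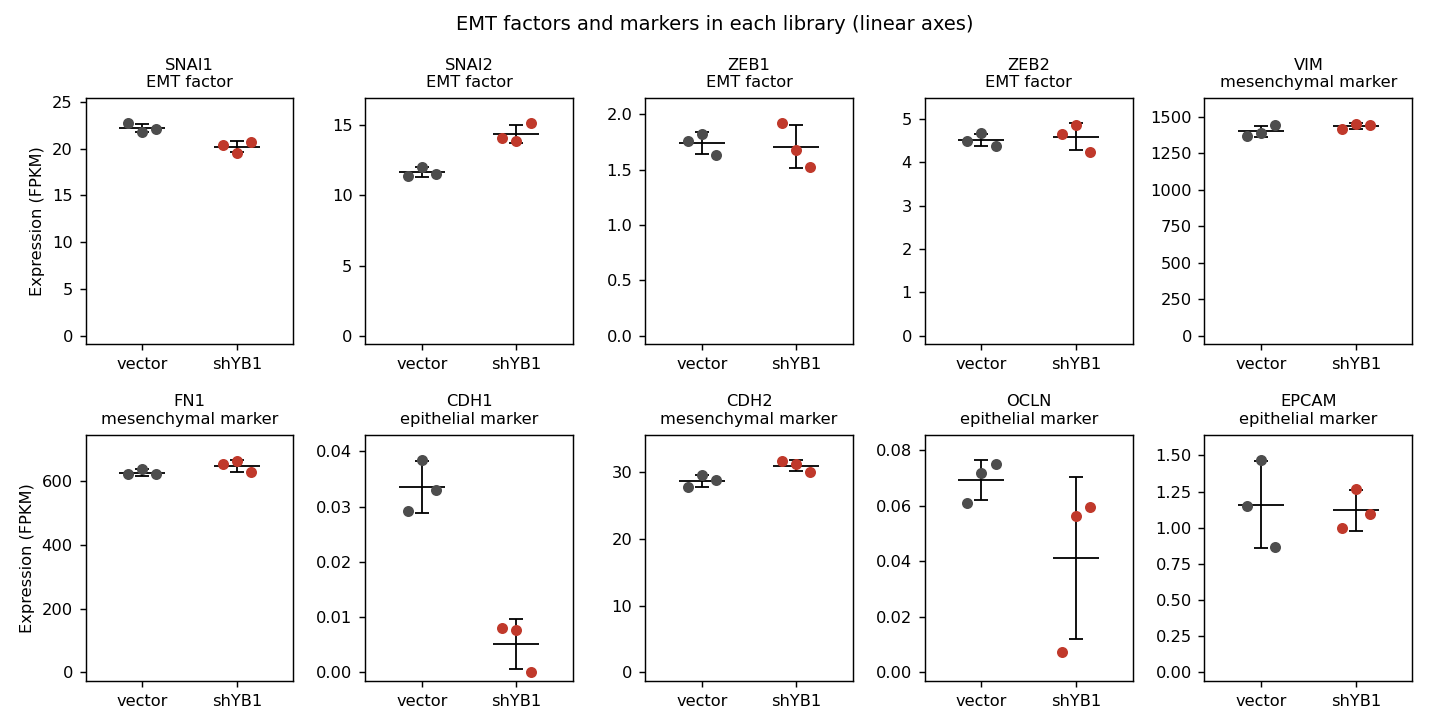
Expression in FPKM of each of the 10 genes in the 3 vector (grey) and 3 shYB1 (red) libraries, on linear axes that differ between panels; points are libraries, and bars give the mean and SD. SNAI1, CDH1 and OCLN lay lower in every shYB1 library, SNAI2 and CDH2 lay higher in every shYB1 library, and the other 5 genes overlapped. Groups did not overlap in 42.6% of all genes tested, among which CDH1 and OCLN are not counted.

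The EMT factors were compared first. Of the 10 genes, the 8 whose mean over both groups reached 1 FPKM entered the test, a limma fit over 10439 genes, and CDH1 and OCLN are given as values. At an adjusted p under 0.05 (limma with Benjamini-Hochberg adjustment), 1 member was lower in shYB1 cells, SNAI1, and 1 was higher, SNAI2. That is 25% of the 8 tested, and 25.7% of all genes tested were called in either direction (6.93% lower and 18.7% higher), so the share called among the members was close to that of all genes. With median-of-ratios size factors, SNAI1 and SNAI2 were again the members called, in the same directions, and of all genes tested 12% were lower and 11.4% higher, against the deposited scale on which 73.0% of calls were higher. The median log2 fold change was 0.029 over the 8 members and 0.055 over all genes tested. None of the 8 tested members had a fold change of 2 on the log2(FPKM + 0.1) scale with an unadjusted p under 0.05 by limma, the limits in the study's methods. Of the 10439 genes tested, 19 were lower and 4 higher past these limits, so few genes of any kind reached them. Among the members, 3 had an unadjusted p under 0.05 by limma, and the share of all genes at that level was not counted. CDH1 and OCLN entered neither count of members.

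SNAI2 (SLUG), a zinc finger repressor of the SNAIL family that binds E-boxes, was at 11.4, 12.05 and 11.6 FPKM in vector libraries and at 14.1, 13.9 and 15.1 FPKM in shYB1 libraries. Every value in shYB1 cells exceeded every value in vector cells, and the gap between the groups was wider than the range within either. The rise was 23.2%, or 0.30 on the log2 scale (standard error 0.049, 95% confidence interval 0.19 to 0.41, adjusted p = 0.00203 by limma with Benjamini-Hochberg adjustment). SNAI2 remained called in all 14 alternatives tried, with adjusted p by limma from 0.00106 to 0.00984. Of all genes tested, 1051 (10.1%) had a larger absolute log2 fold change.

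SNAI1 (SNAIL), the related repressor first known for silencing E-cadherin, lies at chr20:49982999-49988886 on the plus strand. Its values were 22.7, 21.7 and 22.1 FPKM in vector libraries and 20.4, 19.6 and 20.7 FPKM in shYB1 libraries. Every value in shYB1 cells was under every value in vector cells, by a margin close to the range within a group. SNAI1 fell by 8.94%, and the log2 difference was −0.13 (standard error 0.040, 95% confidence interval −0.22 to −0.045, adjusted p = 0.0332 by limma with Benjamini-Hochberg adjustment). The call was near the threshold: over the 14 alternatives the adjusted p by limma ranged from 0.00979 to 0.120 and was under 0.05 in 8. It was 0.0505 with no filter on low values and 0.0662 with a variance prior without trend. With a library left out it was 0.107 without vector replicate 1, 0.0589 without vector replicate 3, 0.0702 without shYB1 replicate 1 and 0.120 without shYB1 replicate 2, again by limma.

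The ratio of SNAI2 to SNAI1 within a library does not depend on how libraries are scaled. It was 0.502, 0.554 and 0.522 in vector libraries and 0.693, 0.708 and 0.732 in shYB1 libraries. SNAI1 thus exceeded SNAI2 in all 6 libraries, and the distance between these paralogs was narrower in every shYB1 library than in any vector library. The mean ratio was 0.526 ± 0.0260 (SD, n = 3) in vector cells and 0.711 ± 0.0196 (SD, n = 3) in shYB1 cells.

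**Figure D2:**
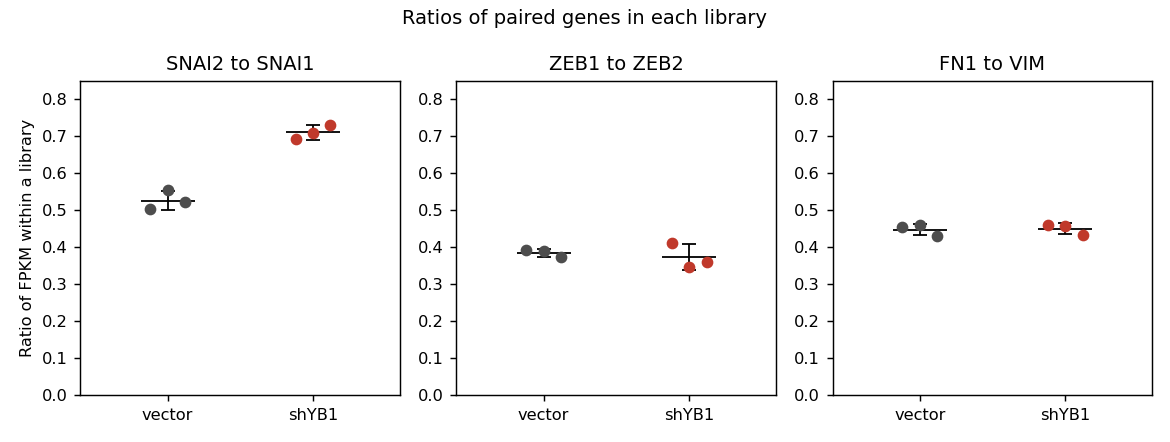
Ratio of FPKM within a library for SNAI2 to SNAI1, ZEB1 to ZEB2 and FN1 to VIM; points are libraries (grey vector, red shYB1), and bars give the mean and SD. The ratio of SNAI2 to SNAI1 lay between 0.502 and 0.554 in vector and between 0.693 and 0.732 in shYB1 libraries, and the other ratios overlapped between the groups.

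The ZEB factors, large repressors with zinc finger clusters at both ends and a homeodomain between them, were expressed at lower levels. ZEB1 (chr10:31318495-31529814, plus strand) was at 1.76, 1.82 and 1.63 FPKM in vector libraries and at 1.92, 1.68 and 1.53 FPKM in shYB1 libraries. ZEB2 (chr2:144364364-144524583, minus strand) was at 4.49, 4.67 and 4.38 FPKM and at 4.66, 4.85 and 4.24 FPKM. For both genes the shYB1 libraries spanned the whole range of the vector libraries. The log2 fold changes were −0.029 for ZEB1 (95% confidence interval −0.25 to 0.20) and 0.020 for ZEB2 (95% confidence interval −0.13 to 0.17), with adjusted p of 0.865 and 0.857 by limma with Benjamini-Hochberg adjustment. ZEB1 stood at 0.385 ± 0.0108 (SD, n = 3) of the level of ZEB2 in vector cells and at 0.373 ± 0.0346 (SD, n = 3) in shYB1 cells. Antisense genes overlap 4.23% of the exonic bases of ZEB1 (ZEB1-AS1) and 5.18% of those of ZEB2 (ZEB2-AS1), and whether the authors counted by strand is not given in the sources used here, so fragments of both strands cannot be told apart in those bases.

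Of the mesenchymal markers, VIM encodes vimentin, the intermediate filament of mesenchymal cells (chr10:17228259-17237593, plus strand). It was at 1366, 1390.5 and 1444 FPKM in vector libraries and at 1416, 1450.0 and 1445 FPKM in shYB1 libraries. The groups overlapped, with vector replicate 3 above shYB1 replicate 1. The log2 fold change was 0.038 (95% confidence interval −0.032 to 0.11, adjusted p = 0.409 by limma with Benjamini-Hochberg adjustment), so the interval ends at a rise of 0.11 on the log2 scale. The antisense gene VIM-AS1 overlaps 12.4% of the exonic bases of VIM and a second antisense gene overlaps 619 of these bases, and antisense genes overlap 5.62% of those of CDH1 and 2.75% of those of CDH2, with the same limit on strand as for the ZEB genes.

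FN1 encodes fibronectin, a matrix glycoprotein that cells bind through integrins (chr2:215360440-215436172, minus strand). It was at 621, 638 and 621 FPKM in vector libraries and at 652, 663 and 627 FPKM in shYB1 libraries. The groups overlapped through a single low shYB1 library, replicate 3. The log2 fold change was 0.047 (95% confidence interval −0.024 to 0.12, adjusted p = 0.312 by limma with Benjamini-Hochberg adjustment). The ratio of FN1 to VIM was 0.448 ± 0.0156 (SD, n = 3) in vector cells and 0.451 ± 0.0143 (SD, n = 3) in shYB1 cells, a difference smaller than the spread between replicates.

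CDH2, which encodes N-cadherin, the cadherin gained in EMT (chr18:27950966-28177446, minus strand), was at 27.8, 29.5 and 28.8 FPKM in vector libraries and at 31.6, 31.3 and 29.98 FPKM in shYB1 libraries. Here too the shYB1 libraries were the higher ones, without overlap, though the lowest shYB1 library was close to the highest vector library. The log2 difference was 0.11 (standard error 0.040, 95% confidence interval 0.019 to 0.20), and the adjusted p of 0.0707 by limma with Benjamini-Hochberg adjustment missed the threshold. After median-of-ratios rescaling the log2 difference was 0.052 and the adjusted p 0.336 by limma, and over the 14 alternatives that p lay between 0.0570 and 0.336. The libraries of the groups did not overlap in 3 of the 8 tested members (37.5%), and in 42.6% of all genes tested.

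**Figure D3:**
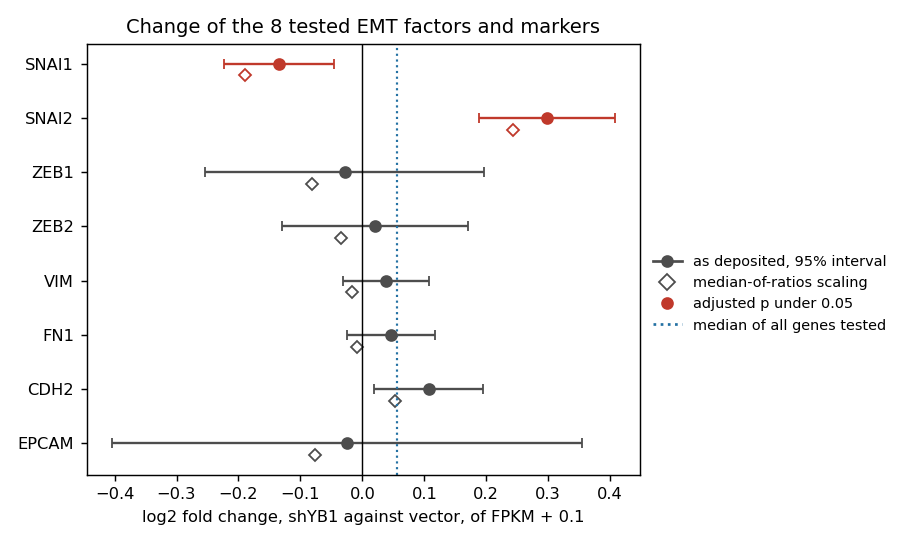
Log2 fold change of shYB1 against vector on the log2(FPKM + 0.1) scale for the 8 tested genes; circles and bars give the deposited scale with 95% confidence intervals, diamonds the median-of-ratios scale, red marks an adjusted p under 0.05 by limma, and the dotted line is the median of all genes tested (0.055). SNAI1 lay below 0 and SNAI2 above 0 on both scales, while ZEB2, VIM and FN1 lay above 0 on the deposited scale and below 0 after rescaling, with intervals that include 0.

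The epithelial markers were at the bottom of the range. EPCAM, an adhesion molecule of most simple epithelia (chr2:47345158-47387601, plus strand), was at 1.15, 1.47 and 0.864 FPKM in vector libraries and at 0.996, 1.27 and 1.09 FPKM in shYB1 libraries. The vector libraries spanned the whole range of the shYB1 libraries. The log2 fold change was −0.025, with a wide 95% confidence interval of −0.40 to 0.35 and an adjusted p of 0.929 by limma with Benjamini-Hochberg adjustment.

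CDH1, which encodes E-cadherin, the cadherin of epithelial adherens junctions (chr16:68737225-68835548, plus strand), was at 0.0291, 0.0384 and 0.0329 FPKM in vector libraries and at 0.00799, 0.00764 and 0 FPKM in shYB1 libraries. All shYB1 values lay below all vector values, and all 6 were close to 0. Adjusted for the relative depth of the libraries, the CDH1 values were whole multiples of the smallest nonzero one to within 0.0174, namely 4, 5 and 4 in vector libraries and 1, 1 and 0 in shYB1 libraries. The sums were 13 and 2 of these steps, so if a step is a fragment the difference rests on few. For OCLN the same division left values up to 0.223 from whole numbers, and no steps are read there. The mean FPKM in shYB1 cells was 0.156 times that in vector cells, a ratio that the pseudocount of 0.1 shrinks strongly at such levels. In a fit with no filter on low values CDH1 had a log2 difference of −0.34 and an adjusted p of 0.0566 by limma with Benjamini-Hochberg adjustment. The ratio of CDH2 to CDH1 was 954, 769 and 875 in vector libraries and 3952 and 4092 in shYB1 replicates 1 and 2, and shYB1 replicate 3 lists CDH1 at 0. N-cadherin transcripts thus far outnumbered E-cadherin transcripts in every library.

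OCLN, which encodes occludin, a membrane protein of tight junctions (chr5:69492292-69558104, plus strand), was at 0.0612, 0.0718 and 0.0750 FPKM in vector libraries and at 0.00745, 0.0563 and 0.0598 FPKM in shYB1 libraries. All shYB1 values lay below all vector values, but shYB1 replicate 1 stood apart from the other shYB1 libraries, which were close to vector replicate 1. The fit with no filter gave a log2 fold change of −0.28 and an adjusted p of 0.330 by limma with Benjamini-Hochberg adjustment. Of the 50-base words in OCLN transcripts, 8.60% recur in other genes, mostly the pseudogene OCLNP1, so the level of OCLN is uncertain. For each of SNAI1, SNAI2, CDH1, CDH2 and OCLN, the genes whose groups did not overlap, a two-sided exact permutation test gave p = 0.1. That is the lowest value possible with 3 libraries in each group, and for the other 5 members the exact permutation p was 0.2 to 0.9. Groups did not overlap in 42.6% of all genes tested, a share that leaves out genes below the filter such as CDH1 and OCLN.

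The list of EMT markers taken from the study held 11 genes, of which 7 are described above. TWIST1 and TWIST2, basic helix-loop-helix factors that drive EMT in other epithelia, were listed at 0 in all 6 libraries. MMP2, a gelatinase that cuts basement membrane collagen, was at 73.2, 72.0 and 72.0 FPKM in vector libraries and at 62.0, 60.2 and 61.3 FPKM in shYB1 libraries, a clear separation of the groups. MMP2 fell, with a log2 change of −0.24 (standard error 0.031, adjusted p = 0.000437 by limma with Benjamini-Hochberg adjustment). The related MMP9 was near the lowest measurable level, between 0 and 0.0680 FPKM. Of the 6 tested genes in this list, 2 were lower (SNAI1 and MMP2) and 1 was higher (SNAI2). Calls were made at an adjusted p under 0.05 by limma, and their counts were the same on the median-of-ratios scale. Among all genes tested, 6.93% were lower and 18.7% higher, and 12% and 11.4% on that scale. In this list 1 was lower with no filter and with a variance prior without trend. The same held without vector replicate 1 or 3, or shYB1 replicate 1 or 2. The median log2 fold change of the list was 0.042.

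Other transcription factors linked to EMT made up a list of 16 genes, of which 11 were tested. Of these, 2 were lower and 3 were higher (2 and 2 on the median-of-ratios scale), beside 6.93% lower and 18.7% higher among all genes (12% and 11.4% on that scale). FOXQ1, a forkhead factor that can repress CDH1, fell from a mean of 28.7 FPKM to 19.8 FPKM, a log2 change of −0.53 (standard error 0.045, adjusted p = 3.77e-05 by limma with Benjamini-Hochberg adjustment). The other gene counted as lower, the Krüppel-like repressor KLF8, had means of 1.25 and 0.849 FPKM and passed the filter at 1 FPKM only through its level in vector cells. In the fit with no filter its log2 fold change was −0.51 (adjusted p = 0.0116 by limma). FOSL1, an AP-1 subunit and the most abundant gene of the list, rose from 78.8 to 111 FPKM, a log2 change of 0.49 (standard error 0.040, adjusted p = 2.86e-05 by limma). The remaining calls, both higher on the deposited scale, were TCF3 (log2 fold change 0.23) and RUNX2 (log2 fold change 0.17), and RUNX2 was not called after rescaling. The changes of FOXQ1 and FOSL1 were larger than those of SNAI1 and SNAI2.

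The wider mesenchymal list held 25 genes, of which 14 were tested. Of these, 5 were lower and 5 higher (5 and 4 on the median-of-ratios scale), beside 6.93% lower and 18.7% higher among all genes tested (12% and 11.4% on that scale), and the median log2 fold change was 0.028. The highest was NT5E, the ecto-enzyme CD73, which rose from 20.7 to 33.2 FPKM, a log2 change of 0.68 (standard error 0.042, adjusted p = 4.40e-06 by limma with Benjamini-Hochberg adjustment). AXL, a receptor tyrosine kinase, rose from 50.3 to 72.4 FPKM (log2 fold change 0.53, adjusted p = 7.31e-06 by limma). TNC, the matrix protein tenascin C, rose with a log2 fold change of 0.43. In the other direction LOX, which crosslinks collagen, fell from 6.95 to 4.84 FPKM (log2 fold change −0.51, adjusted p = 0.000270 by limma). TGFBI, a matrix adhesion protein and the most abundant gene of the list, fell from 728 to 657 FPKM (log2 fold change −0.15, adjusted p = 0.00801 by limma). MMP14 and SPARC fell with log2 fold changes of −0.22 and −0.14.

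In the wider epithelial list, 17 of 30 genes were tested, with 3 lower and 4 higher on the deposited scale and 3 lower and 1 higher after rescaling, beside 6.93% lower and 18.7% higher among all genes (12% and 11.4% after rescaling). MUC1, a mucin of the apical surface, fell from 8.03 to 5.13 FPKM, a log2 change of −0.64 (standard error 0.071, adjusted p = 0.000179 by limma with Benjamini-Hochberg adjustment). CLDN1 and F11R, a claudin and a junctional adhesion molecule, fell with log2 fold changes of −0.14 and −0.15. With a library left out, 1 to 2 genes of the list were lower and 2 to 4 higher. A variance prior without trend left 1 lower and 1 higher. TJP1, the tight junction scaffold ZO-1, rose from 5.95 to 7.72 FPKM (log2 fold change 0.37, adjusted p = 0.000874 by limma) and was the gene called higher on both scales. KRT19, the most abundant gene of the list, had a log2 fold change of 0.12 on the deposited scale (adjusted p = 0.0259 by limma) and of 0.066 after rescaling (adjusted p = 0.131 by limma).

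Regulators that maintain the epithelial state were mostly at low levels. Of 15 genes, 10 had a mean under 1 FPKM, among them the splicing factor ESRP1, with means of 0.0317 FPKM in vector and 0.0410 FPKM in shYB1 cells, and the factor GRHL2, with 0.0132 and 0.0103 FPKM. Of the 5 tested, 1 was lower and 2 were higher (1 and 1 after rescaling), and of all genes 6.93% and 18.7% (12% and 11.4%). ELF3, an epithelium-specific ETS factor, was at 57.2, 56.2 and 61.7 FPKM in vector libraries and at 36.4, 36.3 and 38.7 FPKM in shYB1 libraries. The groups were well apart, and the log2 difference was −0.65 (standard error 0.044, adjusted p = 7.39e-06 by limma with Benjamini-Hochberg adjustment). KLF4 rose from 6.80 to 8.63 FPKM (log2 fold change 0.34, adjusted p = 0.00431 by limma). PAX8, the most abundant of the list, had means of 77.1 and 77.5 FPKM and an adjusted p of 0.893 by limma.

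Among the other cadherins, 4 of 10 were tested, 2 were lower and 1 was higher on both scales, beside 6.93% lower and 18.7% higher among all genes (12% and 11.4% after rescaling). CDH6, a kidney cadherin and at 47.9 FPKM more abundant than CDH2 in vector cells, was at 47.6, 48.4 and 47.8 FPKM in vector libraries and at 33.3, 32.8 and 32.8 FPKM in shYB1 libraries. Its libraries agreed closely within each group, and the log2 difference was −0.54 (standard error 0.032, adjusted p = 3.92e-06 by limma with Benjamini-Hochberg adjustment). In shYB1 cells, CDH6 and CDH2 were close, with means of 33.0 and 30.9 FPKM. CDH16, a cadherin of kidney epithelium, fell from 8.38 to 6.62 FPKM (log2 fold change −0.34, adjusted p = 0.00128 by limma). CDH13, which is anchored to the membrane by a lipid, rose from 21.95 to 30.1 FPKM (log2 fold change 0.45, adjusted p = 3.59e-05 by limma). The renal and ccRCC marker list, which also holds CDH6, had 3 genes lower and 3 higher among 9 tested (4 and 0 after rescaling), beside the same shares of all genes. VEGFA was its most abundant gene, at 337 FPKM in vector and 314 FPKM in shYB1 cells (adjusted p = 0.0252 by limma).

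The partners through which cadherins reach the cytoskeleton made up a list of 13 genes, all tested. Of these, 1 was lower and 2 were higher (1 and 1 after rescaling), beside 25.7% of all genes called in either direction, and the median log2 fold change was −0.00099. CTNND1, p120-catenin, which keeps cadherins at the surface, fell with a log2 fold change of −0.19 (adjusted p = 0.00463 by limma with Benjamini-Hochberg adjustment). CTNNA1, alpha-catenin, rose with a log2 fold change of 0.15 (adjusted p = 0.00473 by limma). CTNNB1, beta-catenin, had a mean of 53.2 FPKM in both groups. CDC42, the most abundant, was called higher on the deposited scale only (log2 fold change 0.094, adjusted p = 0.0443 by limma, and 0.317 after rescaling).

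Proteins that SNAIL and ZEB factors recruit, and those that set the life of the SNAIL protein, were compared as lists. Of 19 corepressor genes, all tested, 1 was lower and 6 were higher, but 1 and 1 after rescaling, so most of these calls depended on the scale. Among all genes the shares were 6.93% lower and 18.7% higher, and 12% and 11.4% after rescaling. MTA1, a subunit of the NuRD complex, fell (log2 fold change −0.18) and SUV39H1, a histone H3 lysine methyltransferase, rose (log2 fold change 0.25), and both were called on both scales. LOXL2, the most abundant at 241 FPKM in vector and 256 FPKM in shYB1 cells, was called on the deposited scale (adjusted p = 0.0428 by limma) and not after rescaling (adjusted p = 0.387 by limma). Of 19 genes of SNAIL turnover, 1 was called lower and 3 higher on both scales, but no lower call remained in 8 of the 14 alternative fits, and 25.7% of all genes were called in either direction. CSNK1A1, the most abundant of these and the casein kinase that primes sites for GSK3, rose from 32.3 to 38.9 FPKM (log2 fold change 0.26, adjusted p = 0.00177 by limma). The deubiquitinases USP37 and PSMD14 rose with log2 fold changes of 0.36 and 0.23, though with no filter USP37 was not called (adjusted p = 0.0546 by limma). These are transcript levels, and the amount of SNAIL protein was not measured here.

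The receptors of fibronectin and the partners of vimentin made up the last pair of lists. Of 11 tested receptor genes, 1 was lower and 4 were higher (2 and 2 after rescaling), beside 6.93% lower and 18.7% higher among all genes (12% and 11.4% after rescaling). ITGB5, an integrin beta subunit, rose from 69.9 to 89.9 FPKM, a log2 change of 0.36 (standard error 0.033, adjusted p = 5.50e-05 by limma with Benjamini-Hochberg adjustment). ITGA3, the most abundant, was at 532 FPKM in vector and 570.1 FPKM in shYB1 cells and was called on the deposited scale only. ITGA5, the alpha subunit of the classical fibronectin receptor, had means of 41.6 and 40.7 FPKM (adjusted p = 0.644 by limma). SDC4, a heparan sulfate proteoglycan, fell (log2 fold change −0.17). No receptor gene was called lower without shYB1 replicate 1 or with a variance prior without trend. Of 8 tested partners of intermediate filaments, none was lower and 3 were higher on both scales, beside the same shares of all genes. FLNA, the actin crosslinker filamin A and the most abundant of them, rose from 323 to 378 FPKM (log2 fold change 0.23, adjusted p = 0.000401 by limma), and LMNA and PLEC rose with log2 fold changes of 0.20 and 0.15.

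**Figure D4:**
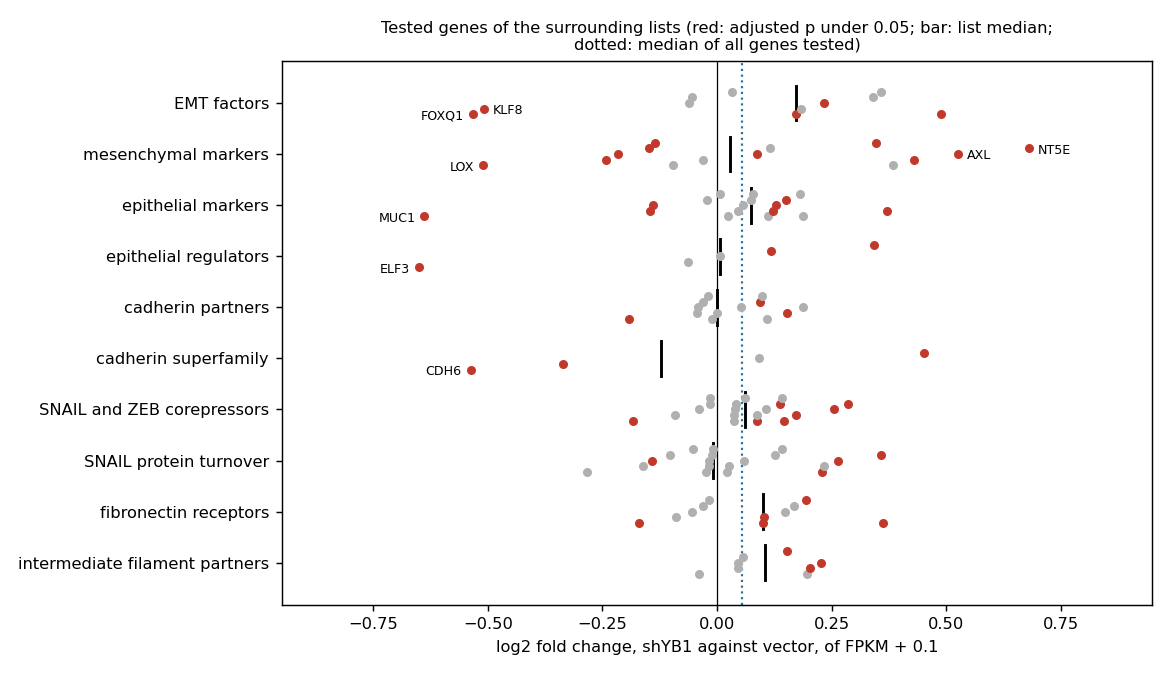
Log2 fold change of shYB1 against vector on the log2(FPKM + 0.1) scale for the tested genes of 10 surrounding lists; each point is a gene, red marks an adjusted p under 0.05 by limma on the deposited scale, black bars are list medians, the dotted line is the median of all genes tested (0.055), and genes called with a change of at least 0.5 are named. Called genes lay on both sides of 0 in 9 of the 10 lists.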

How the data were processed

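RNA sequencing of 3 vector and 3 shYB1 libraries of 786-O cells was analysed. The authors deposited FPKM for 20030 genes, and the submitters' processing notes name Trimmomatic, HISAT2, Cufflinks, HTSeq and DESeq and the build GRCh38, with no roles or versions. FPKM totals were 282736 to 295887. Depth is not given; steps of values under 0.08 FPKM put it at 0.972 to 1.09 times that of shYB1 replicate 1. All 6 columns of values were used and 0 were left out.

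Genes averaging 1 FPKM or more (10439) were transformed as log2(FPKM + 0.1). The 2 groups were tested using limma 3.58.1 under R 4.3.3 (lmFit, eBayes with trend and robust prior). Tests were two-sided, and p-values were adjusted over these genes by the Benjamini-Hochberg method. This step was first tested on simulated data. Exact permutation tests used SciPy 1.17.1, with Python 3.11.15, NumPy 2.4.6, pandas 2.3.3 and matplotlib 3.10.9. Alternatives were pseudocounts of 1 and 0.01, no filter, a filter at 5 FPKM, median-of-ratios size factors, a common total, a prior without trend, a replicate block and each library left out in turn. Coordinates, overlaps and 50-base words came from GENCODE release 29. Protein sequences were not compared here.

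Named genes are every member and YBX1 and, from each list, genes with an adjusted p under 0.05 and an absolute log2 fold change of at least 0.5, the most abundant gene, every gene of the study's EMT marker list and up to 4 others that describe the range. KRT8, KRT18 and KRT19 served as markers of simple epithelia. Results for some genes of the lists are not reported here. Members and lists were chosen with earlier results of these data known. Junction pathways of the table's KEGG annotation were chosen after the data were seen.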

Additional observations from a re-analysis of the deposited data

How the results depend on the processing

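Over the 14 alternatives, the log2 fold change of YBX1 ranged from −1.20 to −1.13. The count of members higher in shYB1 cells was 1 in each, and the count of tested members past the study's criteria on the log2 scale with a pseudocount was 0 in each. Few genes passed these criteria on the deposited scale, 19 lower and 4 higher of the 10439 tested. CDH1 and OCLN were tested only in the fit with no filter. The count of members lower was 0 with no filter on low values and with a variance prior without trend, and 0 to 1 with a library left out, since SNAI1 crossed the threshold, and the cause was not tested. With median-of-ratios size factors, 1253 genes were lower and 1192 higher, against 723 and 1956 on the deposited scale. With a library left out, 517 to 609 were lower and 1324 to 1948 higher. The log2 fold changes of 5 members (ZEB1, ZEB2, VIM, FN1 and EPCAM) changed sign between alternatives, and none of these was called in any. Of the 420 counts of lower or higher genes in the surrounding lists under these alternatives, 63 moved by over 1.5 times, in lists and directions with at most 6 calls on the deposited scale. With the replicate block, 1 member was lower and 1 higher, and 760 and 2074 of all genes. Deviations from group means correlated at −0.169 to −0.00824 for same-numbered and −0.0507 to 0.113 for other pairs, so same-numbered libraries were not the more alike. With 3 same-numbered pairs, this cannot settle whether the numbers pair the libraries. FPKM hold no fragment counts, so no counting interval was given for CDH1 or OCLN.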

Other observations

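The table's KEGG annotation places CDH1, SNAI1 and SNAI2 in the adherens junction pathway and OCLN in the tight junction pathway. Of 72 adherens junction genes, 63 were tested, with 5 lower and 16 higher calls in shYB1 cells by limma (adjusted p under 0.05), and with 8 of each on the median-of-ratios scale. Of all genes tested, 6.93% were lower and 18.7% higher, and 12% and 11.4% on that scale. The genes of this pathway named here were chosen after their values were seen. PTPN6, a tyrosine phosphatase, fell from 2.38 to 1.82 FPKM, and MAPK3, the kinase ERK1, fell from 26.2 to 20.4 FPKM. The receptor FGFR1 rose from 17.8 to 22.8 FPKM. Each of these was called on both scales by limma with Benjamini-Hochberg adjustment, with adjusted p of 0.0109, 0.000798 and 0.000149 on the deposited scale.

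Of 170 tight junction genes, 102 were tested, with 7 lower and 27 higher calls by limma, and with 11 and 17 after rescaling, beside the same shares of all genes. Its called genes also chosen after their values were seen included YBX3, a relative of YB1 that binds the junction protein ZO-1, which fell from 98.0 to 70.7 FPKM (log2 fold change −0.48, adjusted p = 0.000236 by limma with Benjamini-Hochberg adjustment). The median log2 fold changes of the pathways were 0.062 for adherens and 0.073 for tight junctions, beside 0.055 for all genes tested.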
